A study of Capra hircus with 72 samples.

Results

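The medial prefrontal cortex (mPFC) of goats (Capra hircus) kept under moderate chronic hypercapnia was compared with the mPFC of goats kept in room air, by RNA sequencing of bulk tissue. The members were the 12 libraries labelled as mPFC under these conditions, 6 a side, of 72 libraries in the series. The moderate group breathed 6% CO2 for 7 days and then 8% CO2 for 7 days. The room air group breathed normal air for 14 days. All animals were female, and the labels give no breed, age or genotype. A mild group (14 days at 6% CO2, 6 libraries) entered the same fit, and the 36 libraries of the same 2 conditions from 3 brainstem regions were used for 1 comparison. The design text gives 6 animals per condition, but the labels do not tie a replicate number to an animal, so the p-values measure the spread between these samples. Each library is a piece of whole tissue that mixes neurons, glia, vessels and membranes.

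Raised CO2 dissolves into carbonic acid and lowers the pH of blood and brain. Brain vessels dilate in response, and pH-sensitive receptors and channels, bicarbonate transporters and carbonic anhydrases handle the acid load. The mPFC takes part in emotion, decision making and the control of autonomic and hormonal stress responses, it sends output to brainstem respiratory and autonomic centres, and its neurons express immediate early genes with activity and many receptors for stress hormones.

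The tissue label matched the markers. In room air the cortical transcription factor TBR1 had a median of 101.8 CPM (a gene's counts scaled to a common library total) in mPFC and at most 0.22 CPM in any brainstem library. The hindbrain gene HOXB3 had 7 counts in all over the 12 mPFC libraries. Library totals were 14697579 to 20106300 counts in room air and 12838991 to 24135560 counts under moderate hypercapnia (two-sided exact permutation test of the means, p = 0.9). None of 5 measures of depth and composition separated the groups, with Benjamini-Hochberg adjusted p from 0.78 to 0.965 in the exact permutation tests. The first principal component held 28.8% of the variance, and moderate replicate 2, the shallowest library, lay at its far end with a score of 62.98 against -39.66 to 39.17 in the other 11 libraries. Beside each list whose median changed sign without that library, the counts or median without it are given.

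No gene passed the test. Of 15403 genes tested, 0 (0%) had an adjusted p under 0.05 in edgeR's quasi-likelihood test with Benjamini-Hochberg adjustment, and the smallest adjusted p was 0.9997. The count was also 0 in DESeq2 and in limma with quality weights. At an unadjusted p under 0.05 there were 324 genes (2.1%), of which 176 (1.14%) were higher and 148 (0.961%) were lower under moderate hypercapnia. With no differences at all, a share of about 0.05 of the genes is expected under that level, so 2.1% was no excess. DESeq2 gave 453 genes at that unadjusted level and limma gave 401. The median absolute log2 fold change was 0.11, and the median standard error was 0.17, with an interquartile range of 0.12 to 0.27. The values below therefore describe where levels lay in the 2 groups, and no gene among them is a called change. The gene lists were chosen with earlier results of these data known, so their shares beside those of all genes are descriptions too.

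Few genes separated the groups completely. With no difference, a gene does so in 1 direction or the other with a probability of 0.00216, and the counts that follow were no excess over that. All 6 moderate libraries lay above all 6 room air libraries for 9 genes (0.0584%), and below them for 10 genes (0.0649%). Among those with a symbol, which were picked for that separation after their values were seen, were TOLLIP, an adaptor that restrains Toll-like receptor signalling, and NPY1R, a receptor for the neuropeptide NPY. TOLLIP (ENSCHIG00000012594, chromosome 29) was at 195.2 to 404.2 CPM with a median of 329.0 in room air and at 413.1 to 515.1 CPM with a median of 464.2 under moderate hypercapnia, a log2 fold change of 0.54 ± 0.19 (SE, unadjusted p = 0.0128, edgeR). NPY1R was at 45.99 to 57.8 CPM in room air and at 33.1 to 45.6 CPM under moderate hypercapnia, a log2 fold change of -0.33 ± 0.12 (unadjusted p = 0.011, edgeR).

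The 2 lower genes of smallest p are both known from endothelium. APOLD1 (ENSCHIG00000008149, chromosome 5), an immediate early gene of brain endothelium, was at 3.01 to 19.3 CPM with a median of 7.30 in room air and at 1.6 to 4.67 CPM with a median of 2.36 under moderate hypercapnia. All 6 moderate libraries lay below the room air median, while the ranges overlapped. Its log2 fold change was -1.68 ± 0.38 (SE; 95% interval -2.48 to -0.89, unadjusted p = 0.00029, edgeR). Room air replicate 6 held the highest level, and without it the log2 fold change was -1.28 ± 0.33.

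DLL4 (ENSCHIG00000015386, chromosome 10), the Notch ligand of sprouting endothelium, was at 4.28 to 8.98 CPM with a median of 6.81 in room air and at 1.83 to 5.11 CPM with a median of 3.04 under moderate hypercapnia. Again all 6 moderate libraries were below the room air median, and the 2 ranges overlapped at the lowest room air library. The log2 fold change was -1.12 ± 0.26 (95% interval -1.66 to -0.58, unadjusted p = 0.000374, edgeR). The receptor NOTCH1 lay lower without overlap, at 9.94 to 13.6 CPM in room air and 6.80 to 9.75 CPM under moderate hypercapnia, with a log2 fold change of -0.37 ± 0.17. Without moderate replicate 5, its lowest library, the value was -0.30 ± 0.17 (unadjusted p = 0.102, edgeR). VEGFA, the growth factor that induces DLL4 in endothelium, was at a median of 30.2 CPM in room air and 22.2 CPM under moderate hypercapnia, a log2 fold change of -0.50 ± 0.21 that was -0.37 ± 0.21 without room air replicate 3.

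The list of Notch and VEGF genes lay on both sides of 0. Of 19 tested, 12 were higher and 7 lower, with a median log2 fold change of 0.05 beside 0.01 over all genes tested. Without moderate replicate 2 the median was -0.02. DLL4 and NOTCH1 were its only members at an unadjusted p under 0.05, both lower (10.5% against 0.961% of all genes). VEGFA itself was not on this list and is counted below with the hypoxia genes. The Notch targets HEY1 and HES1 had log2 fold changes of 0.05 ± 0.09 and 0.17 ± 0.31, and the other endothelial ligand JAG1 had 0.01 ± 0.21.

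Of 12 pericyte and smooth muscle genes, 2 (16.7%) were lower at an unadjusted p under 0.05 against 0.961% of all genes, and 0 were higher. That share is a description and no test of the list. KCNJ8 (ENSCHIG00000023544, chromosome 5), the pore of the ATP-sensitive potassium channel of pericytes, was at 17.3 to 28.9 CPM with a median of 22.5 in room air and at 14.8 to 21.5 CPM with a median of 16.5 under moderate hypercapnia. RGS5, a regulator of G-protein signalling that marks pericytes, was at 44.1 to 100.2 CPM with a median of 50.1 in room air and at 26.2 to 49.8 CPM with a median of 40.2 under moderate hypercapnia. Their log2 fold changes were -0.44 ± 0.13 and -0.58 ± 0.20, and all 6 moderate libraries lay below the room air median for both. Room air replicate 2 stood far above the rest for RGS5, and without it the log2 fold change was -0.36 ± 0.16. ABCC9, the partner subunit of KCNJ8, had -0.54 ± 0.26 (unadjusted p = 0.0529, edgeR), while the pericyte receptor PDGFRB had 0.13 ± 0.18. The contractile genes ACTA2 and MYH11 of arterial smooth muscle spanned 69.6 to 507.1 CPM and 35.1 to 365.4 CPM within room air alone. The whole list of 12 pericyte and smooth muscle genes had a median of 0.00 with 6 higher and 6 lower, and that median moved between -0.19 and 0.44 as single room air libraries were left out and was -0.12 without moderate replicate 2. In bulk tissue, fewer cells of a type and less RNA per cell cannot be told apart.

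**Figure D1:**
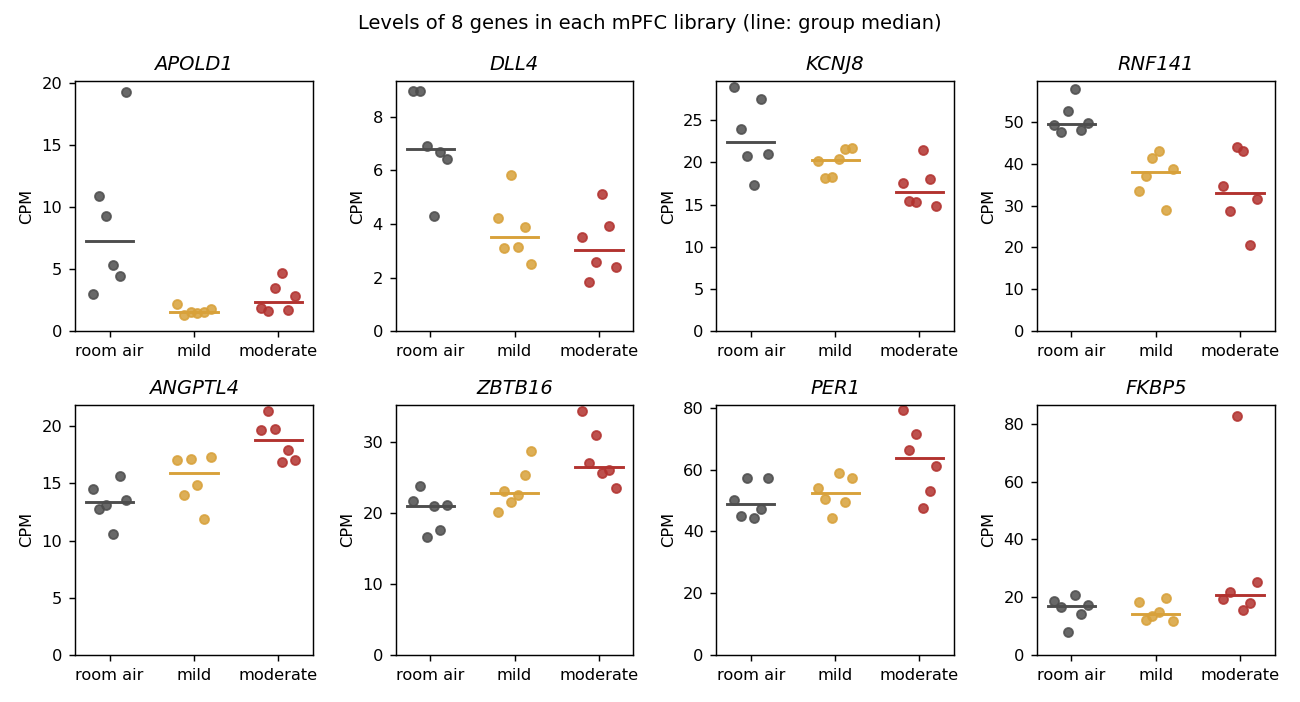
Levels of 8 genes in CPM (y axis) in the 6 room air, 6 mild and 6 moderate mPFC libraries (x axis); each point is a library and each line a group median. All moderate points for APOLD1, DLL4, KCNJ8 and RNF141 lie below the room air median, those for ANGPTL4 and ZBTB16 lie above it, and 1 moderate library at 82.9 CPM sets FKBP5 apart.

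Endothelial genes as a list lay near all genes: 13 of 20 were higher and 7 lower, with a median of 0.03, and 10 were higher and 10 lower without moderate replicate 2, with a median of -0.02. CLDN5, the main claudin of the blood-brain barrier, was at a median of 187.1 CPM in room air and 178.8 CPM under moderate hypercapnia, with moderate replicate 2 at 321.7 CPM. NOS3, endothelial nitric oxide synthase, was at 18.9 and 26.8 CPM, a log2 fold change of 0.44 ± 0.25 that was 0.22 without moderate replicate 2. ACVRL1, an endothelial receptor for BMP ligands that was among the 12 higher genes of smallest p, was at 8.73 to 14.5 CPM with a median of 12.7 in room air and at 11.1 to 27.8 CPM with a median of 21.8 under moderate hypercapnia. It was above the room air median in 5 of 6 moderate libraries, with a log2 fold change of 0.76 ± 0.23 (unadjusted p = 0.00376, edgeR). MMP9, a gelatinase that digests vascular basement membrane, was at medians of 1.49 and 0.48 CPM, a log2 fold change of -1.27 ± 0.41.

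Immediate early genes encode transcription factors and feedback proteins that stimulated cells make first, and they lay mostly lower. Of 30 tested, 23 had a log2 fold change below 0, against 47.9% of all genes tested, and the median was -0.30. Lower members numbered 7, or 23.3%, at an unadjusted p under 0.05 against 0.961% of all genes, and 0 were higher at that level. They were APOLD1, NPAS4, ATF3, NR4A1, DUSP1, FOS and CSRNP1, and were named for having reached it. ATF3 lay near the floor, at 0.06 to 0.57 CPM in the moderate libraries. Its log2 fold change of -0.91 was -0.69 ± 0.33 without moderate replicate 1, its lowest library. Of these 7 only APOLD1 and CSRNP1, a nuclear protein induced by stimulation, stayed under that level when each of the 12 libraries was left out in turn. The list was chosen with earlier results of these data known, so its shares are descriptions and no test of the list.

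FOS, the AP-1 subunit used as a marker of recent neuronal activity, was at 49.6 to 132.8 CPM with a median of 106.4 in room air and at 48.6 to 97.7 CPM with a median of 68.9 under moderate hypercapnia. All 6 moderate libraries were below the room air median, and the ranges overlapped over most of their length. The log2 fold change was -0.51 ± 0.23 (95% interval -0.99 to -0.02, unadjusted p = 0.0415, edgeR), and -0.40 ± 0.24 without room air replicate 3 (unadjusted p = 0.109). NPAS4, a factor induced only by neuronal activity, had medians of 14.5 and 5.92 CPM and a log2 fold change of -1.01 ± 0.41. NR4A1, an orphan nuclear receptor, had medians of 122.2 and 70.1 CPM and -0.73 ± 0.30. DUSP1, a phosphatase that shuts off MAP kinases, had medians of 190.1 and 130.7 CPM and -0.52 ± 0.22.

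The EGR factors, also activity genes, lay closer together. EGR1 was at medians of 145.4 and 133.7 CPM (log2 fold change -0.31 ± 0.19), and EGR3 was at 32.4 and 35.5 CPM. FOSL2 and FOSB, 2 further AP-1 subunits, had positive values of 0.32 ± 0.22 and 0.29 ± 0.44. The mean log2 CPM over the list was 3.54 to 4.38 in room air and 3.39 to 3.97 under moderate hypercapnia, so the groups overlapped and 1 moderate library lay below the room air range. The list median ranged from -0.37 to -0.20 when each of the 18 mPFC libraries was left out in turn, and the number lower at an unadjusted p under 0.05 was 3 without room air replicate 2, 3 or 6 or moderate replicate 3, and 11 without moderate replicate 5.

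**Figure D2:**
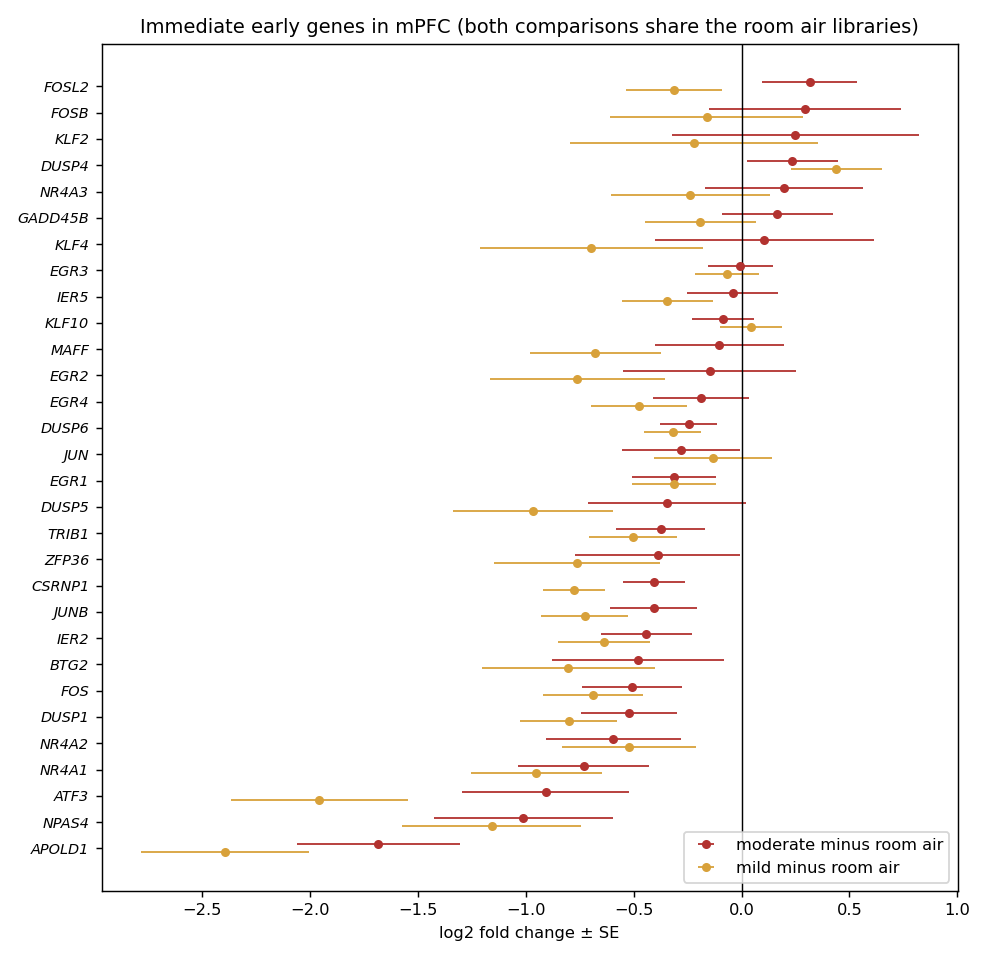
Log2 fold changes (x axis, points; bars are 1 SE) of the 30 immediate early genes (y axis) for moderate minus room air and mild minus room air. Most points lie left of 0 in both comparisons, which share the room air libraries; FOSL2 lies at 0.32 for moderate and -0.31 for mild.

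Longer-lived effectors of activity lay on both sides. Of 15 tested, 7 were higher and 8 lower, with a median of -0.01, which was 0.04 without moderate replicate 2. ARC, a synaptic capsid-like protein whose RNA moves to active dendrites, was at 68.8 to 206.3 CPM with a median of 107.9 in room air and at 32.9 to 102.4 CPM with a median of 73.5 under moderate hypercapnia. The 6 moderate libraries were all below the room air median (log2 fold change -0.72 ± 0.30, unadjusted p = 0.0251, edgeR). Without room air replicate 3 the value was -0.48 ± 0.28 (unadjusted p = 0.106, edgeR). HOMER1, another effector, had -0.17 ± 0.20.

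In the list of glucocorticoid receptors and the genes they induce, 4 of 16 were higher at an unadjusted p under 0.05 (25% against 1.14% of all genes) and 0 were lower. The list was chosen with earlier results of these data known, so that share is a description and no test of the list. ANGPTL4 (ENSCHIG00000023643, chromosome 7), an inhibitor of lipoprotein lipase, was at 10.5 to 15.6 CPM with a median of 13.3 in room air and at 16.9 to 21.3 CPM with a median of 18.8 under moderate hypercapnia, with no overlap. Its log2 fold change was 0.49 ± 0.12 (95% interval 0.25 to 0.73, unadjusted p = 0.000452, edgeR), and it stayed between 0.43 and 0.54 when each of the 12 libraries was left out. ZBTB16 (ENSCHIG00000008305, chromosome 15), a zinc finger repressor, was at 16.6 to 23.7 CPM with a median of 20.99 in room air and at 23.5 to 34.3 CPM with a median of 26.5 under moderate hypercapnia. The groups met only at their edges, and the log2 fold change was 0.46 ± 0.12 (unadjusted p = 0.000943, edgeR).

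The clock gene PER1, which glucocorticoids also induce, was at 44.5 to 57.4 CPM in room air and at 47.4 to 79.3 CPM under moderate hypercapnia (0.33 ± 0.12). FKBP5, a chaperone that dampens the glucocorticoid receptor, was at 7.99 to 20.7 CPM with a median of 17.01 in room air and at 15.7 to 82.9 CPM with a median of 20.6 under moderate hypercapnia. Its log2 fold change of 0.93 ± 0.35 was 0.34 ± 0.20 without moderate replicate 3 (unadjusted p = 0.117, edgeR). That library also gave the highest score of the list. Other well known targets lay near 0: SGK1 had -0.07 ± 0.17, TSC22D3 had -0.02 ± 0.08 and KLF9 had 0.03 ± 0.15. The receptor itself, NR3C1, was at 40.8 to 52.2 CPM in room air and at 31.2 to 45.8 CPM under moderate hypercapnia, lower than the room air median in 6 of 6 libraries (-0.22 ± 0.12, unadjusted p = 0.074, edgeR). The list median was 0.12 with 10 higher and 6 lower, and it was 0.00 without moderate replicate 3. Without room air replicate 3 it was 0.002, with 8 higher and 8 lower.

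Of 14 stress peptides and their receptors, 8 were higher and 6 lower. CRH, the peptide that starts the hormonal stress response, was at medians of 11.4 and 14.3 CPM (0.18 ± 0.22). CRHR2, one of its receptors, was at 2.86 and 2.01 CPM (-0.40 ± 0.30). NPY1R, given above, was the only member at an unadjusted p under 0.05 (7.14% against 2.1% of all genes).

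Neuronal genes lay slightly lower, and less so without moderate replicate 2. Of 21 genes of cortical excitatory neurons 14 were lower, with a median of -0.18, and of 14 pan-neuronal genes 10 were lower, with a median of -0.12. None of these 35 genes reached an unadjusted p under 0.05. Without moderate replicate 2 the medians were -0.05 and -0.04. The vesicular glutamate transporter SLC17A7 was at 567.0 to 1068 CPM with a median of 801.8 in room air and at 520.5 to 826.8 CPM with a median of 710.3 under moderate hypercapnia, a log2 fold change of -0.18 ± 0.14 that spans 0 within its 95% interval of -0.47 to 0.10. The synaptic fusion protein SNAP25 was at medians of 3902 and 3422 CPM (-0.23 ± 0.12), and NTNG2, an adhesion protein of deep-layer cortical axons, was at 40.9 and 28.1 CPM (-0.39 ± 0.21).

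CALB1, a calcium buffer of upper-layer neurons, had 1 moderate library at 10.1 CPM against 1.54 to 2.18 CPM in the other 5, and its log2 fold change of 0.91 ± 0.45 was 0.06 ± 0.30 without that library, moderate replicate 6. Interneuron genes were even: of 19 tested, 9 were higher and 10 lower, with a median of -0.01. GAD1 and GAD2, which make GABA, had log2 fold changes of -0.10 ± 0.14 and -0.04 ± 0.14. TAC3, a tachykinin of interneurons, had 0.59 ± 0.32.

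Receptor and synapse lists had small negative medians. Of 14 GABA receptor genes 12 were lower, with a median of -0.12, but none reached an unadjusted p under 0.05 and the median was -0.02 without moderate replicate 2. The metabotropic GABBR1 was at medians of 758.6 and 711.2 CPM (-0.15 ± 0.10). Of 19 glutamate receptor genes 13 were lower, with a median of -0.05, but without moderate replicate 2 the list held 10 higher and 9 lower, with a median of 0.00. GRIN2A, an NMDA receptor subunit, had medians of 15.1 and 17.5 CPM (0.34 ± 0.17). Of 18 synapse genes 12 were lower, with a median of -0.04. At an unadjusted p under 0.05, 1 was higher (5.56% against 1.14% of all genes). Without moderate replicate 2, 11 of the 18 were higher, with a median of 0.05.

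Of 23 monoamine and acetylcholine receptor genes, 17 were lower, with a median of -0.10, and this was -0.11 without moderate replicate 2. ADRB1, the beta-1 adrenoceptor, was at 3.75 to 25.6 CPM with a median of 7.93 in room air and at 2.64 to 9.43 CPM with a median of 4.45 under moderate hypercapnia. Its log2 fold change of -1.01 ± 0.47 was -0.52 ± 0.43 without room air replicate 6. DRD1, the D1 dopamine receptor, was at medians of 48.2 and 42.1 CPM (-0.25 ± 0.18), and HTR2A, a serotonin receptor, was at 45.6 and 36.1 CPM (-0.18 ± 0.20).

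Among opioid and other peptide genes, 8 of 20 were higher and 12 lower, against 11 higher and 9 lower without moderate replicate 2. PENK, the enkephalin precursor, varied most, at 15.3 to 106.3 CPM in room air and 7.73 to 132.1 CPM under moderate hypercapnia (-0.56 ± 0.65). Of 30 potassium channel genes 21 were lower, with a median of -0.10. KCNN2, a calcium-activated channel that follows the spike, was the only member at an unadjusted p under 0.05 (3.33% against 2.1% of all genes). It was at 47.8 to 62.7 CPM in room air and 39.4 to 50.8 CPM under moderate hypercapnia (-0.21 ± 0.10, unadjusted p = 0.0491, edgeR). Without room air replicate 2 the value was -0.16 ± 0.10. Of 17 purine genes 11 were higher, but without moderate replicate 2 the list held 7 higher and 10 lower. ADORA2A, an adenosine receptor, was above its room air median of 0.49 CPM in 6 of 6 moderate libraries at a median of 0.86 CPM (1.17 ± 0.63).

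Genes that sense or handle acid and CO2 lay on both sides of 0. Of 17 proton and CO2 sensing genes, 8 were higher and 9 lower with a median of -0.01, and 0 reached an unadjusted p under 0.05. The acid-sensing channels ASIC1 and ASIC2 were at room air medians of 29.8 and 7.59 CPM and at moderate medians of 29.7 and 7.04 CPM, with 95% intervals of the log2 fold change of -0.49 to 0.60 and -0.58 to 0.23. The proton receptor GPR4 had -0.09 ± 0.23. KCNJ10, a glial potassium channel closed by acid, was below its room air median in all 6 moderate libraries, at 41.8 to 53.8 CPM in room air and 22.3 to 42.4 CPM under moderate hypercapnia (-0.31 ± 0.17). Without moderate replicate 5, its lowest library, the value was -0.20 ± 0.16. GJB2 and GJB6, glial connexins, had 0.38 ± 0.58 and 0.41 ± 0.39.

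Bicarbonate and proton transporters split 8 and 8, with a median of -0.02. SLC26A4, an exchanger of chloride and bicarbonate, was the only member at an unadjusted p under 0.05 (6.25% against 2.1% of all genes). It was at 1.58 to 2.86 CPM with a median of 2.07 in room air. Under moderate hypercapnia it was at 0.61 to 1.62 CPM with a median of 1.25. All 6 moderate libraries lay below its room air median (-0.85 ± 0.31, unadjusted p = 0.0128, edgeR). The major glial sodium-bicarbonate cotransporter SLC4A4 was at medians of 87.5 and 72.2 CPM (-0.24 ± 0.18), and the neuronal anion exchanger SLC4A3 was at 222.1 and 204.4 CPM (-0.05 ± 0.13). Among 11 carbonic anhydrases, 6 were higher and 5 lower, against 4 and 7 without moderate replicate 2. CA2, the glial cytosolic enzyme, was at medians of 71.5 and 58.2 CPM with a 95% interval of -0.46 to 0.11, and CA4, a membrane-bound enzyme of capillaries, was at 45.9 and 51.7 CPM with an interval of -0.08 to 0.76. In the vacuolar proton pump 9 of 13 subunits were lower, but 8 of 13 were higher without moderate replicate 2. ATP6V1G1, a subunit of its stalk, was at 103.1 to 121.7 CPM in room air and 109.2 to 173.7 CPM under moderate hypercapnia (0.26 ± 0.12, and 0.16 ± 0.10 without moderate replicate 2).

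**Figure D3:**
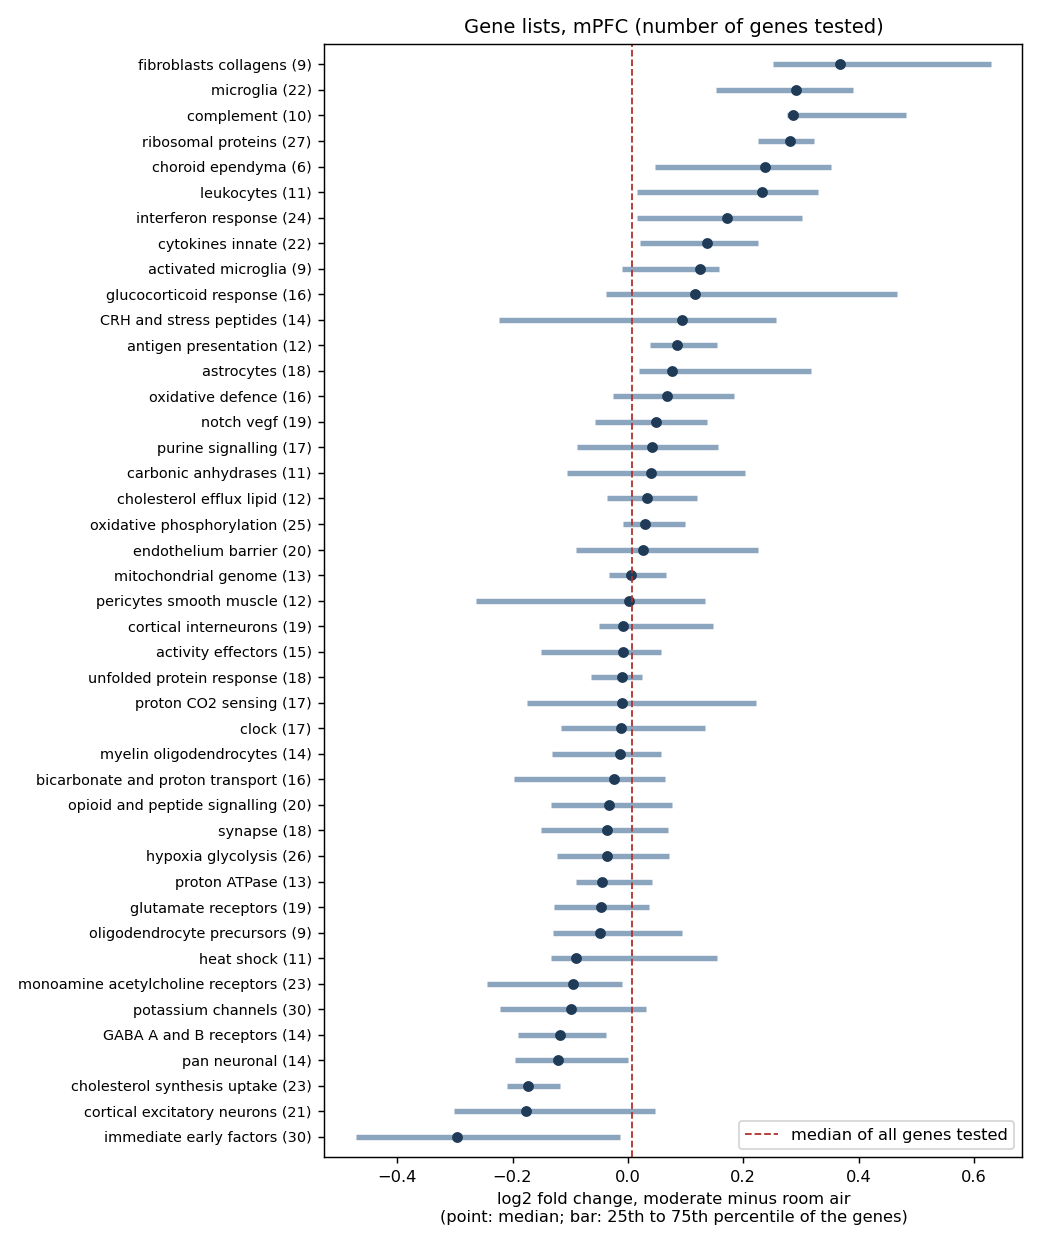
Median (points) and 25th to 75th percentile (bars) of the log2 fold change, moderate minus room air (x axis), for each gene list with at least 5 genes tested (y axis, number of genes in brackets); the dashed line is the median of all 15403 genes. With all libraries, immediate early genes lie lowest at -0.30 and fibroblast genes highest at 0.37 (0.14 without moderate replicate 5), and acid-handling lists lie near the line.

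Cholesterol synthesis and uptake genes lay lower as a block with small values. Of 23 tested, 21 had a log2 fold change below 0 and 2 above, with a median of -0.17 and a narrow spread of -0.36 to 0.01, and none reached an unadjusted p under 0.05. HMGCS1, an early enzyme of the pathway, was at 268.1 to 422.0 CPM with a median of 354.0 in room air and at 226.2 to 346.9 CPM with a median of 310.5 under moderate hypercapnia (-0.26 ± 0.14). DHCR7, which makes cholesterol from its last precursor, was at medians of 82.0 and 71.5 CPM (-0.22 ± 0.12), and the feedback regulator INSIG1 was at 62.6 and 53.2 CPM (-0.21 ± 0.11). SREBF2, the transcription factor of the pathway, was at 126.9 and 134.7 CPM (0.01 ± 0.11). The mean log2 CPM of the list was 6.21 to 6.43 in room air and 6.00 to 6.32 under moderate hypercapnia, and 2 moderate libraries lay below the room air range. Without moderate replicate 2 all 23 were lower, with a median of -0.13. Of 12 efflux and lipid transport genes 8 were higher, with a median of 0.03, and without moderate replicate 2 they split 6 and 6. APOE, the lipid carrier of glia, was at medians of 1519 and 1722 CPM (0.24 ± 0.18).

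Of 26 hypoxia and glycolysis genes, 17 were lower and 9 higher, with a median of -0.04. P4HA1, which hydroxylates collagen, was at 78.1 to 111.4 CPM with a median of 96.4 in room air and at 68.9 to 91.6 CPM with a median of 76.1 under moderate hypercapnia (-0.27 ± 0.09, unadjusted p = 0.0102, edgeR). It and VEGFA, both lower, were the 2 members at an unadjusted p under 0.05 (7.69% against 0.961% of all genes). Nuclear genes of oxidative phosphorylation had a median of 0.03, with 16 of 25 higher. Without moderate replicate 5, whose score of 8.13 stood above 7.81 to 7.85 in the other 5 moderate libraries, 17 of the 25 were lower. The 13 protein genes of the mitochondrial genome, a list added after the data were seen, had a median of 0.01.

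All 27 ribosomal protein genes tested were higher, with a median of 0.28, and none reached an unadjusted p under 0.05. RPL8 was at 274.0 to 338.5 CPM with a median of 310.9 in room air and at 285.0 to 456.4 CPM with a median of 325.8 under moderate hypercapnia (0.20 ± 0.14). The list score was 6.42 to 6.66 in room air and 6.36 to 7.23 under moderate hypercapnia, with replicates 5 and 2 highest. Without moderate replicate 5 the median was 0.17. These genes have many near-identical processed copies, so their counts are uncertain where the counting could split reads among them.

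The unfolded protein response and heat shock lists had medians of -0.01 and -0.09 with 0 of 29 genes at an unadjusted p under 0.05. HSPA5, the main chaperone of the endoplasmic reticulum, was at medians of 921.6 and 884.7 CPM (-0.11 ± 0.09). Of 16 genes of oxidative defence 10 were higher, with a median of 0.07, and without moderate replicate 2 they split 8 and 8, with a median of 0.00. Of 17 clock genes 8 were higher and 9 lower, with a median of -0.01 that was 0.01 without moderate replicate 2; PER1, described above, was not on that list.

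Microglial genes lay higher, with a median that depended on moderate replicate 2. Of 22 tested, 20 had a log2 fold change above 0 against 52.1% of all genes, with a median of 0.29. At an unadjusted p under 0.05, 1 was higher (4.55% against 1.14% of all genes). That gene, TMEM119, a marker of resident microglia, was at 8.52 to 12.2 CPM with a median of 9.38 in room air and at 11.1 to 19.3 CPM with a median of 11.9 under moderate hypercapnia. It was above the room air median in 6 of 6 libraries (0.44 ± 0.17), and it had 0.30 ± 0.16 without moderate replicate 2 (unadjusted p = 0.0722, edgeR). P2RY12, the purine receptor of resting microglia, was at medians of 27.9 and 33.6 CPM (0.28 ± 0.21), and CSF1R, the receptor that keeps microglia alive, was at 159.5 and 194.7 CPM (0.27 ± 0.21). Without moderate replicate 2, 13 of 22 were higher and the median was 0.02. CD163, a marker of macrophages along vessels, had -0.23 ± 0.34.

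Other immune lists depended on the same library or on moderate replicate 3. Complement genes had a median of 0.29, with 9 of 10 higher, and 0.08 without moderate replicate 2. Antigen presentation genes had 0.09, with 11 of 12 higher, and -0.21 without it, when 9 of 12 were lower. Cytokine and innate genes had 0.14 and -0.04. Leukocyte genes had 0.23 and -0.01, and their summed level was 46.5 to 72.6 CPM in room air and 56.4 to 90.8 CPM under moderate hypercapnia; the T cell gene CD3E was at medians of 6.94 and 8.15 CPM. Interferon response genes had a median of 0.17, and -0.05 without moderate replicate 3. MX1, an antiviral GTPase, was at 40.6 to 104.0 CPM in room air and at 40.2 to 198.6 CPM under moderate hypercapnia (0.51 ± 0.35, and 0.08 ± 0.29 without moderate replicate 3). None of these 79 genes reached an unadjusted p under 0.05.

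Other glia and membranes varied widely within each group. Of 18 astrocyte genes 15 were higher with a median of 0.08, and 0.01 without moderate replicate 2; GFAP, the intermediate filament of astrocytes, was at 1444 to 4619 CPM in room air and 1243 to 9591 CPM under moderate hypercapnia. Of 14 myelin genes 7 were higher and 7 lower, with a median of -0.01 that was 0.05 without moderate replicate 2. The mean log2 CPM of that list was 4.79 to 5.71 in room air and 4.51 to 6.72 under moderate hypercapnia. On that score 4 moderate libraries lay below the room air range and 1 lay above it. MOG, a protein of the outer myelin sheath, was at 55.0 to 236.7 CPM with a median of 87.9 in room air and at 38.1 to 292.5 CPM with a median of 54.3 under moderate hypercapnia. The highest of these was moderate replicate 6, without which 12 of 14 myelin genes were lower with a list median of -0.60. With that score as a covariate the number of genes called remained 0. Fibroblast and collagen genes, which mark the membranes on the brain surface, had a median of 0.37, with 8 of 9 higher. That median was 0.14 without moderate replicate 5, 0.22 without moderate replicate 2 and 0.07 in limma with quality weights, and below the microglial and ribosomal medians of 0.29 and 0.17 without moderate replicate 5. COL1A1 alone ran from 7.30 to 95.2 CPM in room air and from 28.2 to 221.3 CPM under moderate hypercapnia. The summed level of that list was 210.9 to 1705 CPM in room air and 444.6 to 2764 CPM under moderate hypercapnia, and its part in the other differences was not tested.

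**Figure D4:**
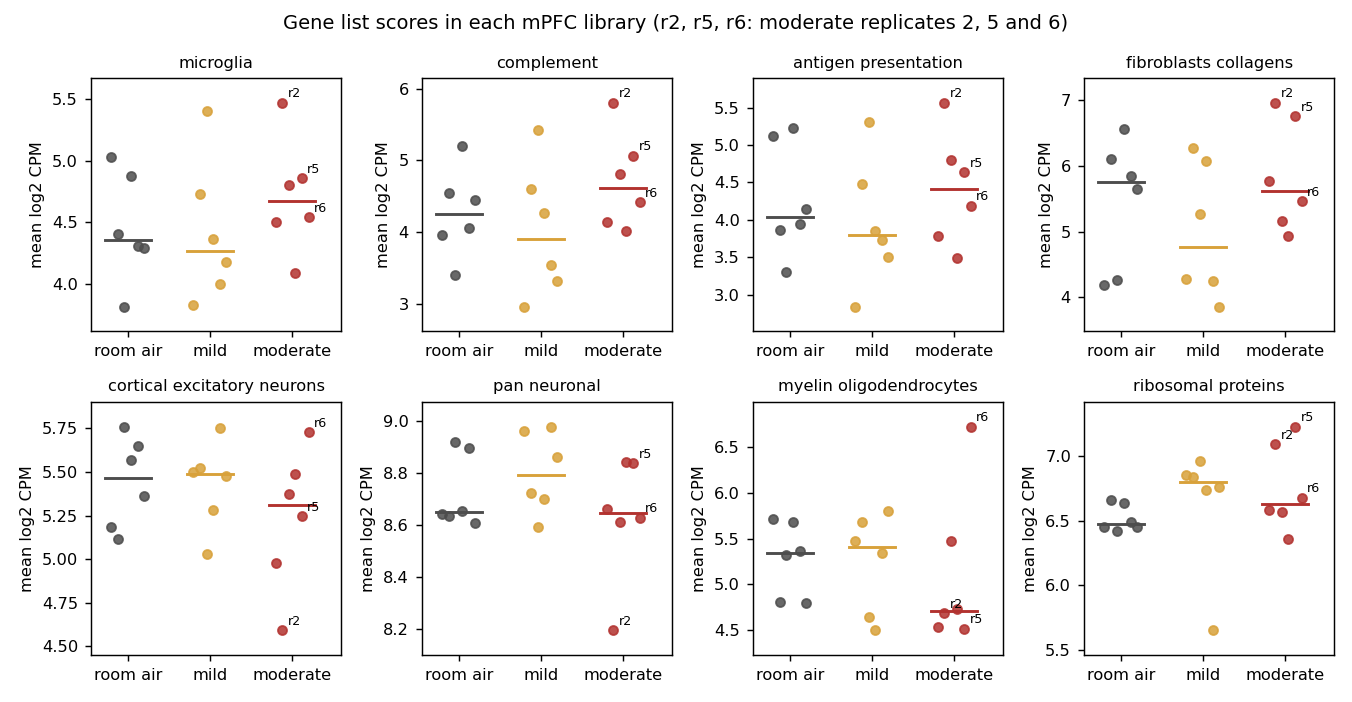
Mean log2 CPM of 8 gene lists (y axes) in each of the 18 mPFC libraries by condition (x axis), with group medians as lines and moderate replicates 2, 5 and 6 marked. Moderate replicate 2 is the highest for microglia, complement and antigen presentation and the lowest for both neuronal lists, replicate 6 is the highest for myelin, and replicates 5 and 2 are the highest for ribosomal proteins.

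Several genes of smallest p lay outside the lists. RNF141 (ENSCHIG00000014083, chromosome 15), a ring finger protein, was at 47.5 to 57.9 CPM with a median of 49.5 in room air and at 20.6 to 44.1 CPM with a median of 33.1 under moderate hypercapnia, without overlap (-0.59 ± 0.15, unadjusted p = 0.000817, edgeR). HYAL3 (ENSCHIG00000016992, chromosome 22), a hyaluronidase family member, was at 30.5 to 37.2 CPM in room air and 24.6 to 29.8 CPM under moderate hypercapnia, also without overlap (-0.29 ± 0.08). HSD17B6, a steroid dehydrogenase, was at medians of 22.2 and 11.5 CPM (-0.83 ± 0.24). NOVA1, a neuronal splicing factor, was at medians of 20.5 and 15.7 CPM (-0.32 ± 0.10), and ELMO1, an activator of Rac, was at 646.6 and 498.8 CPM (-0.39 ± 0.13). For each of these 5 genes at least 5 of 6 moderate libraries lay below the room air median. PRSS33, PHC1 and GLCCI1 completed the 12 lower genes, with log2 fold changes of -0.75 ± 0.21, -0.61 ± 0.19 and -0.49 ± 0.16.

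The 12 higher genes of smallest p included ACVRL1, ANGPTL4, ZBTB16 and PER1, given above. ACADS, the short-chain acyl-CoA dehydrogenase of mitochondria, was at 29.7 to 36.7 CPM with a median of 33.7 in room air and at 31.4 to 63.2 CPM with a median of 44.98 under moderate hypercapnia (0.46 ± 0.16). PPARGC1B, a coactivator of mitochondrial genes, was at medians of 2.69 and 3.98 CPM (0.62 ± 0.22), and HOGA1, a mitochondrial aldolase, was at 6.91 and 14.1 CPM (0.78 ± 0.27). LZTFL1, a regulator of ciliary traffic, was at 72.4 to 88.2 CPM in room air and 86.0 to 116.1 CPM under moderate hypercapnia (0.27 ± 0.08). BRD1, a chromatin reader, had 0.53 ± 0.19, CCDC40, a protein of motile cilia, had 0.61 ± 0.21, FBXO36 had 0.59 ± 0.20, and PVRIG, an inhibitory lymphocyte receptor, had 1.21 ± 0.43. Of 44 genes named here, TOLLIP aside, that had an unadjusted p under 0.05 in edgeR, 29 stayed under it when each of the 12 libraries was left out in turn, among them APOLD1, DLL4, KCNJ8, RGS5, ANGPTL4, ZBTB16, PER1, NPY1R and P4HA1. All of the 12 higher and 12 lower genes of smallest p were among the 29. Genes picked for a small p tend to stay under that level, so this count is no separate support for them.

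The mild group shares its room air controls with the moderate one, so both sets of values are given side by side with no comparison of the 2 patterns. Mild against room air called 0 genes (0%), with 532 (3.45%) at an unadjusted p under 0.05 in edgeR. The median of the immediate early list was -0.30 for moderate and -0.58 for mild, and APOLD1 had -1.68 ± 0.38 and -2.39 ± 0.39. DLL4 had -1.12 ± 0.26 and -0.89 ± 0.26. ANGPTL4 had 0.49 ± 0.12 and 0.20 ± 0.12, and FKBP5 had 0.93 ± 0.35 and -0.08 ± 0.35. Tested directly, moderate against mild called 0 genes of 15403 (0%), with 725 (4.71%) at an unadjusted p under 0.05 and a smallest adjusted p of 0.954 in edgeR's quasi-likelihood test; DESeq2 also called 0. The lower genes of smallest p were PMS1, a mismatch repair protein, with a log2 difference of -0.62 ± 0.15, TMEM41B, a lipid scramblase, with -0.52 ± 0.12, and AKAP7, an anchor of protein kinase A, with -0.58 ± 0.14. The higher ones were USH1G, a scaffold of sensory hair cells, with 0.57 ± 0.15, and RET, the receptor for GDNF family ligands, with 0.97 ± 0.26. PMS1 was at 11.4 to 18.4 CPM in room air, 16.2 to 23.5 CPM in mild and 9.75 to 16.8 CPM in moderate hypercapnia, so the mild libraries were the high ones.

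Whether the mPFC differed from the brainstem was tested as the moderate minus room air difference in mPFC less the mean of the same difference in 3 brainstem regions, namely the solitary tract nucleus (NTS), the respiratory column of the ventral medulla (VRC) and the CO2-sensitive retrotrapezoid nucleus (RTN). Of 16372 genes, 0 (0%) passed, 846 (5.17%) had an unadjusted p under 0.05, and the smallest adjusted p was 0.881 in edgeR's quasi-likelihood test. That 5.17% is close to the share of 0.05 expected there with no differences. The design text gives 6 animals per condition for the 4 regions, so libraries of different regions share animals, which the edgeR fit does not take into account. With limma and a correlation within replicate numbers, used in place of animals that the labels do not name, 0 were called. There 1128 of 16372 had an unadjusted p under 0.05, more than the 846 in edgeR. With replicate number as a block in edgeR, 1057 of 16372 did. As single mPFC libraries were left out, the number ran from 416 of 16442 to 1361 of 16449. So the closeness to 0.05 describes the main fit and not all of these. ARC was among the genes of smallest p: it had -0.72 ± 0.30 in mPFC and 0.35 ± 0.29, 0.53 ± 0.32 and 0.26 ± 0.28 in NTS, VRC and RTN, a difference of -1.12 ± 0.31 (unadjusted p = 0.00071, edgeR; -1.07 and 0.00177 in limma with that correlation). Without mPFC room air replicate 3 the ARC difference was -0.88 (unadjusted p = 0.00664, edgeR). PMEL, a melanosome protein, had -1.66 ± 0.66 in mPFC with 1 room air library at 16.9 CPM, and -0.72 ± 0.55 without that library. Its difference of -1.93 ± 0.50 includes that library, and the difference without it is not reported here.

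For 3 other leading genes the difference from the brainstem was smaller than its SE. APOLD1 had -1.68 in mPFC and -1.84, -1.89 and -1.55 in NTS, VRC and RTN, with an mPFC difference of 0.06 ± 0.57. RNF141 had -0.59 in mPFC and -0.63, -0.63 and -0.60 in the brainstem, with a difference of 0.02 ± 0.22. ZBTB16 had 0.46 and 0.42, 0.71 and 0.40, with a difference of -0.07 ± 0.25. Values of 1 gene in the 4 regions come from shared animals and are not separate evidence.

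**Figure D5:**
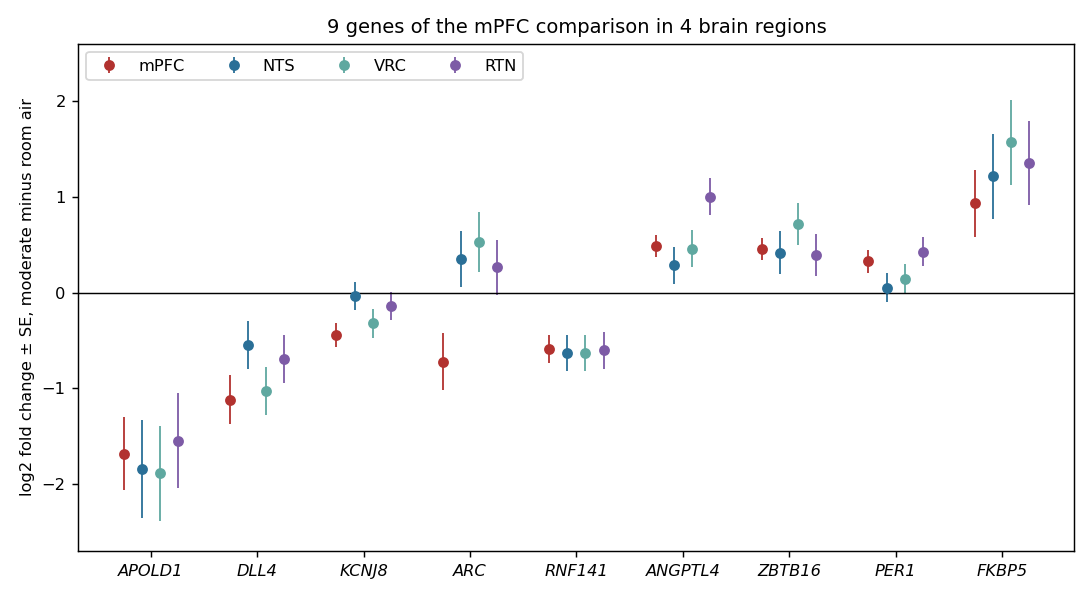
Log2 fold change, moderate minus room air (y axis; bars are 1 SE), of 9 genes (x axis) in mPFC and in the 3 brainstem regions. APOLD1 and RNF141 lie at nearly the same value in all 4 regions, while ARC is below 0 in mPFC and above 0 in each brainstem region.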

How the data were processed

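The authors deposited 1 table of gene counts and RPKM for all 72 libraries. RNA was extracted on columns and libraries made with a low-input kit, per the labels' protocols; FastQC, Trimmomatic, STAR, featureCounts and edgeR are named in the submitters' processing notes. For tool versions, genome build, annotation release and strand setting the status is: not given in the sources used here. The deposited counts were used and the RPKM values were not. edgeR 4.0.16 (R 4.3.3; limma 3.58.1, DESeq2 1.42.0) fitted the 18 mPFC libraries with filterByExpr (minimum count 10), TMM scaling and the quasi-likelihood F test, with Benjamini-Hochberg adjustment at 0.05. The region comparison used all 72 libraries. Log2 fold changes are moderate minus room air with standard errors; CPM are TMM-scaled. Scripts were tested on simulated data. Of 21343 genes, 6643 have no symbol. Replicates of 1 group differed by 15.39 to 86.85 chi-square units per degree of freedom, so none was counted as a copy. Same-numbered room air and moderate libraries did not deviate together (correlations -0.3 to 0.338; 2 of 6 over 0.1), so no pairing was used.

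Named genes were the 12 higher and 12 lower of smallest p with a symbol and a mean of at least 1 CPM, the first 2 and the smallest-p tested members of each of 44 lists, and 6 per direction for the other 2 comparisons; further list members were chosen after their values were seen. The members and lists were chosen with earlier results of these data known. List names count only symbols found in the table. Some results are not reported here.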

Additional observations from a re-analysis of the deposited data

Results flagged for a closer look

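In 27 of 374 sets of 6 libraries (7.22%), 1 library stood apart from the other 5. The cutoff used gives about 1 in 20 for independent sets of normally distributed values. These sets share libraries, and some of their genes were picked after their values were seen. The 7.22% is therefore not read as an excess. Values are CPM unless said otherwise, and no cause was tested.

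Moderate replicate 2 stood apart most often. It was high for the microglial gene TMEM119 (19.28 against 11.08 to 14.03), the cytokine IL1B (12.95 against 5.7 to 7.949), the endothelial genes CLDN5 (321.7 against 153.8 to 211.5) and THSD1 (25.3 against 11.53 to 14.67), and the pericyte receptor PDGFRB (47.09 against 23.82 to 32.22). Its mean log2 CPM was high for endothelial genes (5.328 against 4.77 to 4.877) and low for pan-neuronal genes (8.195 against 8.613 to 8.842).

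Moderate replicate 6 was high for the myelin genes MOG (292.5 against 38.1 to 130) and OPALIN (109.7 against 14.71 to 31.09), and for CALB1 (10.11 against 1.542 to 2.184). Moderate replicate 5 was low for KCNJ10 (22.28 against 37.22 to 42.41) and NOTCH1 (6.798 against 9.221 to 9.746). It was high for NDUFA2, a respiratory chain subunit (211.9 against 116.2 to 147.5), and for the mean log2 CPM of oxidative phosphorylation (8.129 against 7.813 to 7.851). Moderate replicate 3 was high for FKBP5 (82.93 against 15.68 to 25.39) and FBXO36 (7.244 against 3.256 to 4.496). Moderate replicate 1 was low for ATF3 (0.06288 against 0.4572 to 0.5713).

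In room air, replicate 2 was high for the mural cell genes RGS5 (100.2 against 44.1 to 58.5), ACTA2 (507.1 against 69.56 to 192) and MYH11 (365.4 against 35.09 to 89.96), for KCNJ10 (53.76 against 41.78 to 45.42) and for TTR, a choroid plexus gene (3.847 against 0.7002 to 1.15). Replicate 3 was high for DRD1 (65.75 against 45.18 to 51.32) and CD163 (41.19 against 20.17 to 27.83). Replicate 4 was high for MX1 (104 against 40.65 to 56.74). Replicate 1 was high for MOG (236.7 against 55.03 to 121.7) and for HLA-DOB, a member of the antigen presentation list (30.3 against 6.066 to 14.76).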

How the results depend on the processing

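The number of genes called was 0 in moderate against room air under all 27 alternatives tried, and also in moderate against mild and in the region comparison under each alternative run there. Genes at an unadjusted p under 0.05 numbered 324, and 511 without a filter on low counts, 217 at a mean of at least 5 CPM, 413 with the 2 groups alone, and 248 (without moderate replicate 2) to 660 (without moderate replicate 4) as single libraries were left out; 502 were found without mild replicate 5. With replicate number as a block, 0 were called and 305 had an unadjusted p under 0.05; in the region comparison the block gave 0 called. The ribosomal protein median of 0.281 ranged from 0.172 to 0.354 and the myelin median of -0.0142 from -0.6 to 0.0934 as libraries were left out. Of 141 named genes 114, and of 42 list medians 16, kept their sign under all settings run. The median standard error of 0.166 on the log2 scale limits which small differences could be detected with 6 libraries a group.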
